A study of Homo sapiens with 6 samples.

Results

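HNF4A, FOXA1, FOXA2, FOXA3, CEBPA, ONECUT1, ONECUT2, PROX1 and TBX3 are transcription factor genes of hepatocytes and their precursors. They were taken by name from the deposited count table, where all 9 are found among 27394 gene names. RNA was sequenced from Huh7, a human hepatocellular carcinoma cell line. There were 3 libraries from Huh7 cells with an shRNA against CTSV (genotype label CTSV knockdown) and 3 from Huh7 cells with a control shRNA (genotype label WT). The protein of CTSV is cathepsin V, which degrades proteins in lysosomes, and the series concerns liver cancer. The labels give neither the hairpins and their number nor whether a line is 1 clone. The labels do not state that libraries of a group are separate cultures, so the p-values reflect library-to-library spread that may be technical.

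Hepatocyte identity is held by a network of transcription factors that bind each other's genes and the same liver enhancers. HNF4A, an orphan nuclear receptor, and CEBPA, a basic leucine zipper factor, drive much of the adult hepatocyte programme. The FOXA proteins are forkhead pioneer factors that open chromatin in early endoderm and liver. The ONECUT proteins, PROX1 and TBX3 act in the liver bud, where they take part in hepatoblast growth, migration and the choice between hepatocyte and bile duct fates.

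Library totals were 16280506 to 17930442 counts with the CTSV shRNA and 16258803 to 18106207 with the control shRNA. CTSV itself had 304, 264 and 296 counts in knockdown libraries, against 755, 740 and 658 in control libraries. It fell by 1.34 on the log2 scale (SE 0.0958, edgeR adjusted p = 7.2e-14). Mitochondrial genes took 11.4% to 11.8% of counts in knockdown libraries and 9.09% to 9.52% in control libraries. All 10 hepatocyte markers looked for, ALB, APOA1, APOA2, APOB, TTR, TF, SERPINA1, FGB, AFP and AHSG, were detected, and summed to 41950 to 43010 CPM (counts scaled to library size with TMM factors) with the CTSV shRNA and 34360 to 35060 CPM with the control shRNA. Most of this sum came from ALB, AFP and APOB. Of the 10, 6 rose, 1 fell (TTR) and 3 were not called (APOA1, APOA2 and FGB). The shares over all tested genes were 18.7% that rose and 21.6% that fell.

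Of the 9 factor genes, 6 rose in knockdown cells, 1 fell and 2 were not called. HNF4A, FOXA1, ONECUT1, ONECUT2, PROX1 and TBX3 were the 6 that rose, by 1.09-fold to 1.45-fold. CEBPA fell to 0.801 of its control level, and FOXA2 and FOXA3 were not called. All 9 passed the low-count filter. Among all 15968 genes tested, 18.7% rose and 21.6% fell, 40.3% in all. Among the 12658 protein-coding ones, 18.7% rose and 26.2% fell. In bulk RNA, fewer cells expressing a gene and less of its RNA per cell cannot be told apart. Among the 5877 tested genes at least as abundant as the lowest of the 9, FOXA3, 19.1% rose and 40.2% fell. The median log2 fold change of the 9 was 0.17, beside 0.02 for all tested genes. The rises of ONECUT1 and TBX3 and the fall of CEBPA were called under every alternative that was run. With loess offsets for transcript length and GC content, 2 of the 9 rose, 1 fell and 6 were not called. Over all genes the same offsets gave 2231 rises and 4744 falls, against 2982 and 3451 without them, so that 32.0% of calls were rises, against 46.4%.

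**Figure D1:**
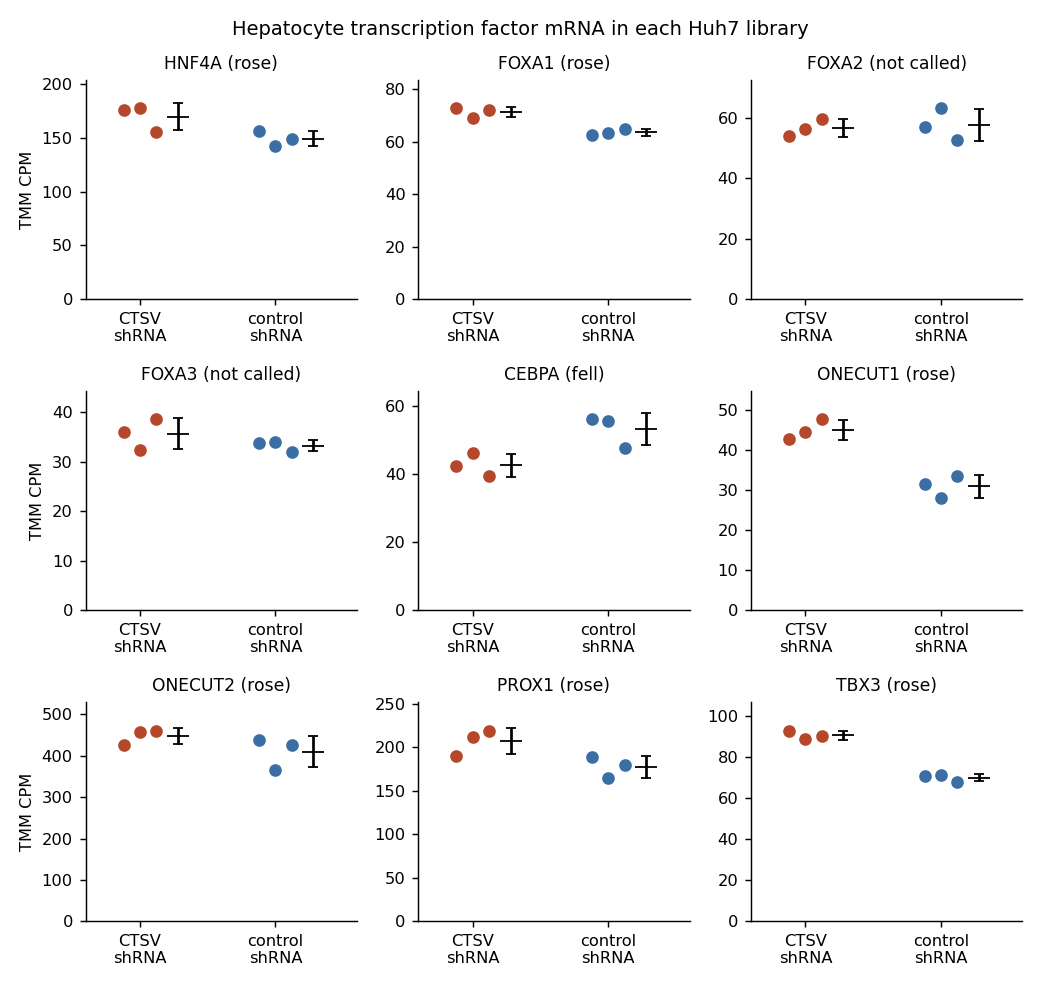
TMM-scaled CPM of the 9 factor genes in each library, with the 3 CTSV shRNA libraries left of the 3 control shRNA libraries; bars give mean ± SD and each title gives the edgeR call. The groups are apart for FOXA1, ONECUT1, PROX1, TBX3 and CEBPA and overlap for the other 4 genes.

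HNF4A lies on chromosome 20 from 44355700 to 44434596 (hg38, plus strand, protein coding). It is transcribed from a pair of promoters, of which the downstream one, called P1, is the main one in adult liver and the upstream one, P2, is used in pancreas and fetal liver. RefSeq places a start at 44355699 and another 45540 bases downstream, at 44401239. The gene counts do not separate transcripts from these starts. The windows below run 5′ to 3′ on the plus strand (GRCh38.p14), from 250 bases before each start to 50 bases at and after it, and are shown because they differ in which motifs of the network they hold. Capitals mark matches, on either strand, to ATTGAT (a core of the ONECUT motif) and GTTAAT (a half-site of the HNF1 motif).
HNF4A upstream start, chr20:44355449-44355748: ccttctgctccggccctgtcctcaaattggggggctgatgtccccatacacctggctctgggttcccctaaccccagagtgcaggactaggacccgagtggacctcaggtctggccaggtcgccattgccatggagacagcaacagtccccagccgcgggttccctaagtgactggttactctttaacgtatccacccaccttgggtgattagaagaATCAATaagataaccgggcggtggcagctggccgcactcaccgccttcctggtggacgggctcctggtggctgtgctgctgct
HNF4A downstream start, chr20:44400989-44401288: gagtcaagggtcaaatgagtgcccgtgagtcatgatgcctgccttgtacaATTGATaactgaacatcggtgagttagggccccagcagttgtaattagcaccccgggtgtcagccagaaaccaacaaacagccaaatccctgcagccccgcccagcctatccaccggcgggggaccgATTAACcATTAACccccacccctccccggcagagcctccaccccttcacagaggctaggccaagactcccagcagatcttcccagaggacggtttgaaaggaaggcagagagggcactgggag
Both windows hold 1 ONECUT match, beginning 33 bases before the upstream start and 200 bases before the downstream start. The downstream window alone holds HNF1 half-sites, 2 of them side by side, beginning 73 and 66 bases before the start. Of 35116 RefSeq promoter windows of this length, 6.26% hold the ONECUT letters and 6.88% the HNF1 half-site. No match overlaps another. A match describes the letters and does not show binding.

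HNF4A had 176.2, 177.3 and 155.0 CPM in knockdown libraries, against 156.6, 142.2 and 148.8 CPM in control libraries. Knockdown replicate 3 lay just below control replicate 1, so the groups overlapped, while the other knockdown libraries stood above all controls. HNF4A rose 1.14-fold (log2 fold change 0.18, SE 0.0561, edgeR adjusted p = 0.00828). The call was lost without knockdown replicate 2 (log2 fold change 0.15, edgeR adjusted p = 0.0864) and with length and GC offsets (0.077, edgeR adjusted p = 0.237); over all alternatives the adjusted p ranged from 0.000703 to 0.237.

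The FOXA genes moved little, and FOXA1 alone of the 3 was called. FOXA1 (chromosome 14, 37589984 to 37596059, minus strand) had 72.8, 69.1 and 72.0 CPM in knockdown libraries, against 62.6, 63.2 and 64.9 CPM in control libraries. All 3 knockdown libraries stood above all 3 controls. FOXA1 rose 1.12-fold (log2 fold change 0.17, SE 0.0651, edgeR adjusted p = 0.0399). That call was lost in each of the 6 fits that left out a library (log2 fold changes of 0.15 to 0.19), without a low-count filter and with the offsets, with an adjusted p of 0.0294 to 0.129 over all alternatives.

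FOXA2 (chromosome 20, 22581005 to 22585455, minus strand) had 53.9, 56.2 and 59.7 CPM in knockdown libraries, against 56.9, 63.2 and 52.8 CPM in control libraries. The control libraries spanned the knockdown ones. The log2 fold change was -0.02, with a 95% interval of -0.18 to 0.13 (edgeR adjusted p = 0.823). FOXA3 (chromosome 19, 45863989 to 45873797, plus strand) had 36.1, 32.3 and 38.5 CPM in knockdown libraries, against 33.9, 33.9 and 32.0 CPM in control libraries. Here the controls lay close together and within or just under the range of the knockdown libraries. The log2 fold change was 0.10, with a 95% interval of -0.08 to 0.28 (edgeR adjusted p = 0.388).

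CEBPA, which restrains proliferation and drives metabolic genes in hepatocytes, was the 1 factor gene of the 9 that fell. It is a single-exon gene on chromosome 19 from 33299934 to 33302564 (minus strand). CEBPA had 42.2, 46.1 and 39.4 CPM in knockdown libraries, against 56.0, 55.7 and 47.7 CPM in control libraries. Every knockdown library was below every control, with knockdown replicate 2 and control replicate 3 nearest each other. Its log2 fold change was -0.32 (SE 0.0812, edgeR adjusted p = 0.00159), and it stayed called under all 13 alternatives (adjusted p 0.000206 to 0.0163). Its transcript has the highest GC content of the 9, 65.9%. The RefSeq window of CEBPA is shown because it is that of the gene that fell, and capitals mark TATAAA, the TATA box, beginning 30 bases before the start.
CEBPA, chr19:33302485-33302784, minus strand, GRCh38.p14: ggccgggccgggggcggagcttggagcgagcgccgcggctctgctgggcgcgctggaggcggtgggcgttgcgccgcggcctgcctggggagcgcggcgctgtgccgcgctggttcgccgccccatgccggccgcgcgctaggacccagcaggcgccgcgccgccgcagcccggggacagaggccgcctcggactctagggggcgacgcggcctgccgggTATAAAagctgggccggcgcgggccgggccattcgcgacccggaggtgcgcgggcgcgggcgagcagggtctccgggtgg
TATAAA stands in 11.5% of all windows, and at the same distance in the window of FOXA3.

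ONECUT1, also called HNF6, rose most of the 9. The gene lies on chromosome 15 from 52756989 to 52791078 (minus strand), and its product binds promoters of glucose and bile duct genes and of other factors of the network. ONECUT1 had 42.8, 44.5 and 47.6 CPM in knockdown libraries, against 31.4, 27.9 and 33.5 CPM in control libraries. The lowest knockdown library stood well above the highest control. It rose 1.45-fold (log2 fold change 0.54, SE 0.0868, edgeR adjusted p = 3.96e-06), and 0.47 to 0.60 on the log2 scale over the alternatives. Its RefSeq window, shown as that of the gene with the largest rise, has a GC content of 75.0% and holds no match to any of 7 motifs searched on both strands.
ONECUT1, chr15:52790287-52790586, minus strand, GRCh38.p14: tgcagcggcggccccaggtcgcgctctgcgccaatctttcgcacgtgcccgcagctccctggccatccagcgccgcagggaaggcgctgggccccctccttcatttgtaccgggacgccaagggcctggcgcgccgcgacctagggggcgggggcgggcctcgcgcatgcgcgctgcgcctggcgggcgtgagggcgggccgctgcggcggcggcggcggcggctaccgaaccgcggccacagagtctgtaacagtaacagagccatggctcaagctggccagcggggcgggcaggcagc
The 7 were the ONECUT, HNF1 and TATA letters given above and 4 more. For FOXA the letters were TGTTTNC, found in 18% of all windows. The HNF4 letters CAAAGNNCA stand in 5.28% and the CEBP letters TTGCNNAA in 10.5% of windows. The T-box letters GGTGTGA stand in 3.45%. Windows were found for 6 of the 9 genes, and the FOXA letters stand in 1 of them, that of FOXA1.

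ONECUT2, the paralog of ONECUT1, had a small rise that rested on single libraries. The gene spans 57435685 to 57491297 on chromosome 18 (plus strand), with the longest exon sequence of the 9 at 16234 bases. ONECUT2 had 425.5, 457.6 and 460.6 CPM in knockdown libraries, against 438.7, 366.5 and 424.8 CPM in control libraries. Control replicate 2 was far below the other controls, and control replicate 1 was above knockdown replicate 1. The log2 fold change was 0.13 (SE 0.0516, edgeR adjusted p = 0.0463). It was 0.049 without control replicate 2 (edgeR adjusted p = 0.431) and -0.06 with length and GC offsets (edgeR adjusted p = 0.258), and DESeq2 did not call it (adjusted p = 0.0823); the adjusted p ranged from 0.0163 to 0.431.

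PROX1, a homeobox factor needed for hepatoblast migration and a partner of nuclear receptors, lies on chromosome 1 from 213983181 to 214041502 (plus strand). PROX1 had 190.0, 212.3 and 219.3 CPM in knockdown libraries, against 189.2, 164.6 and 179.3 CPM in control libraries. The groups were apart, but only just, between knockdown replicate 1 and control replicate 1. PROX1 rose 1.17-fold (log2 fold change 0.22, SE 0.0561, edgeR adjusted p = 0.00157). The offsets for length and GC content ended this call (0.082, edgeR adjusted p = 0.177, the highest over all alternatives; the lowest was 0.000109), and its transcript has the lowest GC content of the 9, 40.7%.

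TBX3, a T-box repressor that keeps hepatoblasts dividing, lies on chromosome 12 from 114670254 to 114684164 (minus strand). TBX3 had 92.9, 88.6 and 90.4 CPM in knockdown libraries, against 70.8, 71.1 and 67.9 CPM in control libraries. Libraries within a group were close together and the groups far apart. TBX3 rose 1.30-fold (log2 fold change 0.37, SE 0.0612, edgeR adjusted p = 5.21e-06), and 0.29 to 0.39 over the alternatives, the lowest with length and GC offsets.

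In all, the groups did not overlap for 4 factors higher and 1 lower in knockdown libraries, against 24.1% and 25.0% of all tested genes. Some factors had the same replicate of a group as their lowest or highest, and whether this exceeds what any genes show was not tested. ONECUT1, ONECUT2 and PROX1 were all lowest in knockdown replicate 1, highest in knockdown replicate 3 and, among controls, lowest in replicate 2. FOXA2 had the same lowest and highest knockdown replicates but was highest in control replicate 2. ONECUT1 was highest in control replicate 3, and ONECUT2 and PROX1 in control replicate 1. CEBPA and HNF4A were both highest in knockdown replicate 2 and lowest in knockdown replicate 3. Among controls, CEBPA was lowest in replicate 3 and HNF4A in replicate 2.

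**Figure D2:**
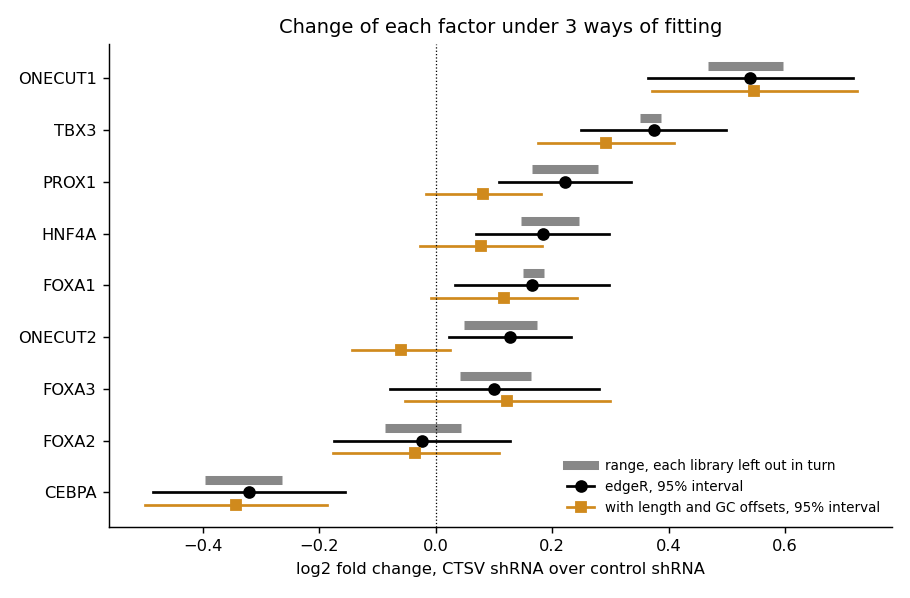
Log2 fold change, CTSV shRNA over control shRNA, of each factor gene from edgeR (black, 95% interval), with offsets for transcript length and GC content (orange, 95% interval) and as a range over fits that each leave out 1 library (grey). The intervals of ONECUT1, TBX3 and CEBPA exclude 0 both ways, while those of PROX1, HNF4A, FOXA1 and ONECUT2 include 0 with the offsets.

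To compare levels between genes, CPM was divided by exon length, giving CPM per kilobase. The length was the union of annotated exons. For ONECUT1 it was 3850 bases against 2092 for the longest transcript, and for FOXA1 3982 against 2862. The order of the levels per kilobase depends on the length used. In knockdown cells the highest of these levels was that of ONECUT2 (27.6 ± 1.2), followed by PROX1 (23.2 ± 1.71), HNF4A (23.2 ± 1.72) and FOXA2 (21.8 ± 1.13; SD, n = 3 each). FOXA1 (17.9 ± 0.49), FOXA3 (16.3 ± 1.43), CEBPA (16.2 ± 1.28) and TBX3 (15.2 ± 0.36) came next, and ONECUT1 was lowest at 11.7 ± 0.634 CPM per kilobase. In control cells the order was ONECUT2 (25.3 ± 2.36), FOXA2 (22.1 ± 2.02), HNF4A (20.4 ± 0.985), CEBPA (20.2 ± 1.8), PROX1 (19.9 ± 1.38), FOXA1 (16.0 ± 0.305), FOXA3 (15.2 ± 0.504), TBX3 (11.8 ± 0.296) and ONECUT1 (8.04 ± 0.734).

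Among the top 5 in control cells, ONECUT2 to PROX1, the library values of each gene overlapped those of the next in order. From PROX1 downwards, each control level was above the next in all 3 libraries. CEBPA thus stood in 4th place in control cells and in 7th in knockdown cells, where its values overlapped those of FOXA3 and TBX3. All 9 stood above the middle of the tested genes, which had passed the low-count filter, in level per kilobase. By exon-union length, ONECUT2 stood above PROX1 in knockdown cells, and the values of PROX1, HNF4A and FOXA2 overlapped there. ONECUT1 lay below TBX3 in every knockdown library by this length. The percentile among tested genes lay between 77.3 for ONECUT1 and 92.0 for ONECUT2 in knockdown cells, and between 66.8 and 89.6 for the same genes in control cells.

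**Figure D3:**
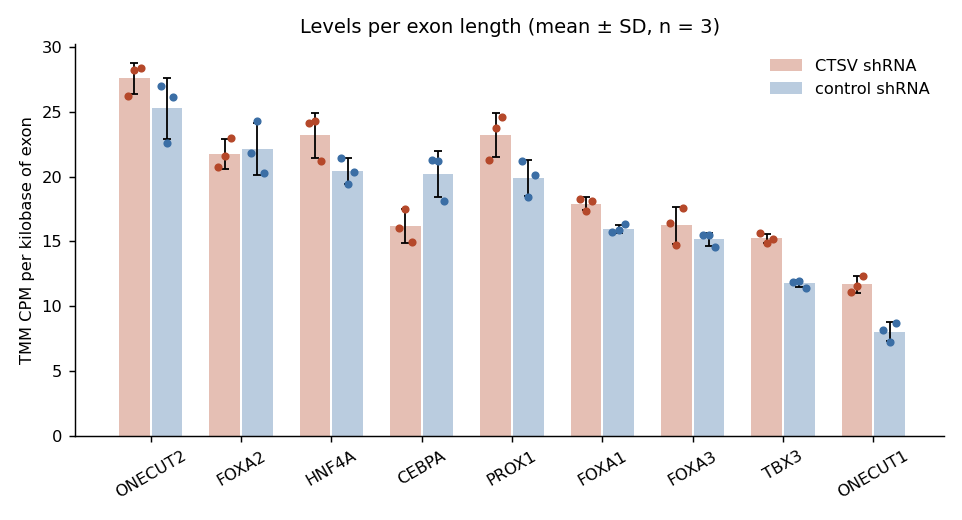
Levels of the 9 factor genes in TMM-scaled CPM per kilobase of exon, bars giving the mean and whiskers the SD of 3 libraries (points), CTSV shRNA left of control shRNA, ordered by the control mean. Levels run from 27.6 for ONECUT2 to 11.7 for ONECUT1 in knockdown cells, and CEBPA is the gene whose bar is clearly lower there.

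Within a library, the ratio of a pair of genes does not depend on the scaling of that library. ONECUT1 made up 29.7% ± 0.626 of the summed ONECUT1 and ONECUT2 level per kilobase in knockdown libraries and 24.15% ± 0.902 in control libraries (SD, n = 3 each). The size of these shares depends on the exon lengths used. The log2 ratio of ONECUT1 to ONECUT2 counts was 0.41 higher in knockdown libraries, at -3.31, -3.36 and -3.27, against -3.80, -3.71 and -3.66 in control libraries. The log2 ratio of CEBPA to HNF4A was lower by a similar amount, with a difference of -0.50. It was -2.06, -1.94 and -1.98 in knockdown libraries, against -1.48, -1.35 and -1.64 in control libraries. The groups did not overlap in either ratio. An exact two-sided permutation test gave p = 0.1 for each, the smallest that 3 against 3 libraries allow, and 0.2 adjusted over the 4 ratios tested.

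The balance among FOXA genes was not shown to differ. FOXA1, FOXA2 and FOXA3 made up 32.0% ± 1.08, 38.9% ± 1.46 and 29.03% ± 1.38 of their summed level per kilobase in knockdown libraries and 30.02% ± 1.7, 41.5% ± 2.03 and 28.5% ± 0.675 in control libraries (SD, n = 3 each). The SD is the spread between libraries only. Size and order of the shares depend on the exon-union lengths used, 3982, 2603 and 2192 bases. The longest transcripts of FOXA1, FOXA2 and FOXA3 have 2862, 2422 and 1989 bases. The log2 ratio of FOXA1 to FOXA2 differed by 0.19 and that of FOXA3 to FOXA2 by 0.12, with an exact two-sided permutation p of 0.3 for each.

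Other transcription factors that act in liver, not only those particular to it, changed in both directions. They form the list called other liver-enriched factors. Of 27 tested, 7 rose, 6 fell and 14 were not called, with a median log2 fold change of 0.02. Beside this stand 18.7% that rose and 21.6% that fell among all tested genes, whose median was also 0.02. CEBP relatives of CEBPA were among the falls. CEBPB, which is induced in inflammation and regeneration, was at 26.4 ± 3.2 CPM in knockdown libraries and 51.7 ± 3.65 CPM in control libraries, a log2 fold change of -0.97. CEBPG, a dimer partner of the other CEBP proteins, was at 175.7 ± 2.74 and 266.5 ± 4.55 CPM in knockdown and control libraries, a log2 fold change of -0.60 (SD, n = 3 each). CEBPD (0.10) was not called. BHLHE40, a repressor of the clock (-0.91), and XBP1, a factor of the secretory stress response (-0.54), also fell, and with CEBPB and CEBPG are the named 4 of smallest adjusted p (edgeR, 1.04e-12 to 5.74e-11). ATF5 (-0.76), named after its value was seen, and ESRRA (-0.52) complete the falls.

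The 7 rises of that list were mostly named after their values were seen. They were the nuclear receptor genes NR1I2 (1.01), NR1H4 (0.53), NR2F1 (0.52) and NR5A2 (0.22), the endoderm zinc-finger genes GATA6 (0.41) and GATA4 (0.19), and CREB3L3 (0.25), a membrane-bound factor of hepatic lipid metabolism. HNF4G (-0.15), paralog of HNF4A, and TBX2 (-0.005), paralog of TBX3, were not called.

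On the lists used here, genes known as targets of HNF4A, FOXA factors or CEBPA rose more often than they fell. Over the HNF4A, FOXA and CEBPA target lists together, 35 genes were found and 28 of them tested. Listed targets such as PCK1, CYP7A1 and F9 had no entry. Of the 28, 14 rose and 3 fell, with a median log2 fold change of 0.30. The lists were chosen with earlier results of these data known, so these counts are a description only. Over all tested genes, 18.7% rose and 21.6% fell, with a median of 0.02. Of 17 tested HNF4A targets, 9 rose and 1 fell (median 0.26). The named 4 were TF, transferrin (0.54), MTTP, which loads lipid onto apolipoprotein B (0.62), SERPINA1, alpha-1-antitrypsin (0.35), and AMBP, precursor of a plasma carrier and inhibitor (0.34). TF was at 1391 ± 51.5 CPM in knockdown libraries and 955.9 ± 30.2 CPM in control libraries (SD, n = 3 each). APOA1 (0.05), APOA2 (-0.02) and APOC3 (0.26) were not called.

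Of 8 tested FOXA targets, 6 rose and 1 fell, with a median of 0.28. Those named were AFP, the fetal serum protein alpha-fetoprotein (0.44), CPS1, the first urea cycle enzyme (1.30), and again TF and SERPINA1. The 1 fall in both lists was TTR, the thyroxine carrier transthyretin (-0.19), at 121.9 ± 10.3 CPM in knockdown libraries and 138.7 ± 5.75 CPM in control libraries (SD, n = 3 each). It was not called without knockdown replicate 2 or knockdown replicate 3, which left 0 falls in those lists.

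Among CEBPA targets, rises outnumbered falls. Of 11 tested, 5 rose, 2 fell and 4 were not called, with a median of 0.34. ALB (0.22), CPS1 and SERPINA1 are named here. ALB, the main plasma protein gene, was at 13380 ± 328.8 CPM in knockdown libraries and 11480 ± 273.1 CPM in control libraries (SD, n = 3 each). The falls were HP, haptoglobin (-1.08), and ASS1, a urea cycle enzyme (-0.37), chosen after their values were seen. Of 11 tested genes linked to ONECUT factors, PROX1 or TBX3, 3 rose and 4 fell (median -0.02). That list mixes genes that TBX3 represses, partners of PROX1 and the factor gene FOXA2. Its counts are therefore not comparable with those of the target lists. CDKN2A, a cell cycle inhibitor gene that TBX3 represses, fell (-0.55), CDH1, the E-cadherin gene, also a target of TBX3 repression, rose (0.78), and the PROX1 partners NR5A2 (0.22) and ESRRA (-0.52) moved apart. Without knockdown replicate 3, 2 of these falls were called. Several lists share genes, 7 of the 28 target genes being in more than 1, and no test of a list was made.

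**Figure D4:**
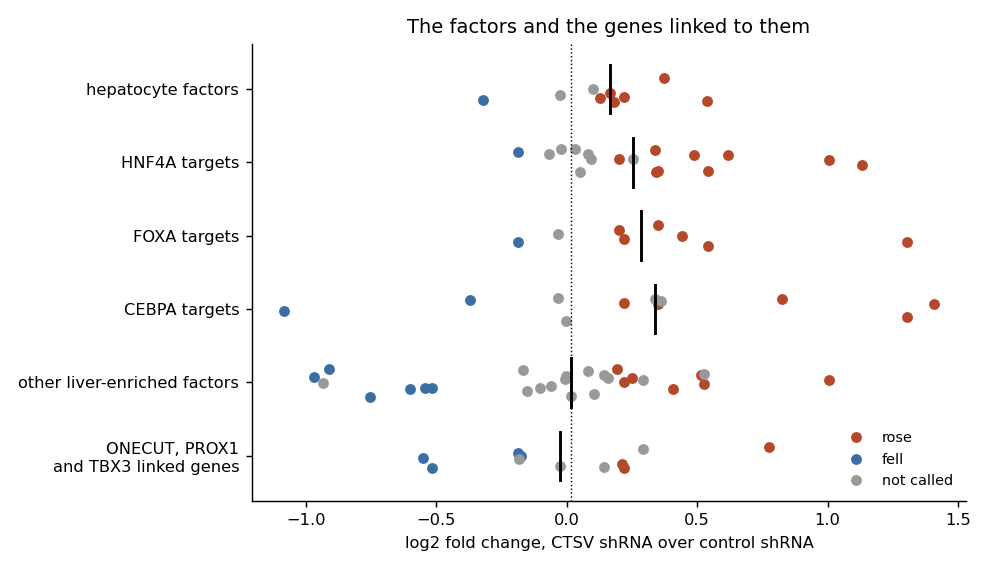
Log2 fold change, CTSV shRNA over control shRNA, of each tested gene among the 9 hepatocyte factors, their target lists and other liver-enriched factors, coloured by edgeR call, with the list median as a black bar and the median of all tested genes (0.02) as a dotted line. The medians of the HNF4A, FOXA and CEBPA target lists lie at 0.26 to 0.34, and that of other liver-enriched factors at 0.02.

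Some markers of other cell types also differed between the groups, and their part in the changes of the 9 factors was not tested. Several list sums below rest mostly on a single gene. For the counts below, the shares over all tested genes were 18.7% that rose and 21.6% that fell. Of 7 tested enterocyte markers, 5 rose and 0 fell, and the list summed to 491.4 to 504.5 CPM in knockdown libraries and 305.3 to 317.5 CPM in control libraries. VIL1 alone averaged 351.3 and 253.1 CPM in knockdown and control libraries. The intestinal factor gene CDX2, the cadherin gene CDH17, VIL1 and SI were the named 4 (log2 fold changes 1.30, 2.23, 0.47 and 4.14). SI had few reads in control libraries, with 8, 13 and 11 counts. Of 8 tested cholangiocyte and progenitor markers, 1 rose and 4 fell, with sums of 946.9 to 975.6 CPM in knockdown libraries and 1211 to 1243 CPM in control libraries. Most of these sums came from CD24, with means of 599.9 and 830.6 CPM in knockdown and control libraries. EPCAM (1.08) rose, and CD24 (-0.47), SPP1 (-0.93), SOX9 (-0.17) and PROM1 (-0.13, named after its value was seen) fell. Endothelial and lymphatic markers, which matter because PROX1 is also a lymphatic factor, summed to 19.8 to 22.1 CPM in knockdown libraries and 18.3 to 23.8 CPM in control libraries, most of it PECAM1, with LYVE1 at 0 to 6 counts. Stellate and fibroblast markers summed to 32.2 to 35.8 and 21.3 to 24.2 CPM in knockdown and control libraries (1 rose, COL1A2, 1.02), and leukocyte markers to 56.7 to 62.1 and 75.4 to 84.2 CPM (1 fell, LYZ, -0.42). Nearly all of the leukocyte sum was LYZ, with means of 57.1 and 76.3 CPM in knockdown and control libraries. Every gene name in the deposited table had reads, so no marker found there could be at 0 in all 6 libraries. Without an entry, and not analysed here, were KRT7, CDX1, FABP2, VWF, CDH5, KDR, FLT4, PDPN, ACTA2, DCN, LRAT, PTPRC, CD68, CD163 and MARCO.

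Genes next to the 9 factors were found by annotated position. TTC6 overlaps the start of FOXA1 on the opposite strand and shares 16 exon bases with it. TTC6 had 410, 381 and 485 counts in knockdown libraries, against 190, 156 and 193 in control libraries, and rose (log2 fold change 1.22, edgeR adjusted p = 2.13e-10). PROX1-AS1 runs antisense to PROX1 and shares 171 exon bases with it. It had 158, 204 and 209 counts in knockdown libraries, against 153, 161 and 122 in control libraries, and was not called (0.37, edgeR adjusted p = 0.0535). Strand use in counting is not stated, so reads in the shared bases could belong to either gene. CEBPA-AS1, divergent from CEBPA with a gap of 293 bases, had a log2 fold change of 0.26 and was not called, so it was not shown to fall with CEBPA.

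Among the other nearest neighbours that were tested, FECH (-0.52), beyond ONECUT2, and RBM19 (-0.22), 703883 bases from TBX3, fell, while SYMPK (-0.11) and IRF2BP1 (-0.11) beside FOXA3, FAM214A (0.15) and AC016044.1 (-0.18) beside ONECUT1, AC090340.1 (-0.06) beside ONECUT2 and SMYD2 (-0.04) beside PROX1 were not called. AC011700.1, inside PROX1 on the opposite strand with no shared exon base, rose on few reads, with 11, 18 and 24 counts in knockdown libraries, against 10, 4 and 3 in control libraries (log2 fold change 1.602, edgeR adjusted p = 0.0289). It passed the low-count filter only through the knockdown libraries, in which it is higher, so this call is a description only.

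The authors' deposited table gives log2 fold changes of control over knockdown, so a rise in knockdown cells is negative there. In the authors' deposited table, ONECUT1 (-0.53), TBX3 (-0.36), PROX1 (-0.21) and HNF4A (-0.17) are called in that direction and CEBPA (0.33) in the other at an adjusted p under 0.05. FOXA1 (adjusted p = 0.089) and ONECUT2 (adjusted p = 0.106) are not called in the authors' deposited table.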

How the data were processed

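The deposited table holds raw whole-number read counts per gene for each of the 6 libraries, with no normalization recorded. The build hg38 and the tools HISAT2, SAMtools and StringTie are named per the submitters' processing notes. Which program counted reads, on which annotation and strand, and how multi-mapped reads were handled, is not stated in the labels. Beside the counts stand the authors' log2 fold changes, deposited as control over knockdown, and the authors' p-values. Identical copies under 127 names were reduced to 1 entry each, which removed 1521 of 28915 entries and left 27394 names. No name had copies that differed (0 names).

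Counts were tested with edgeR 4.0.16 in R 4.3.3 (quasi-likelihood, TMM factors, filterByExpr by group, no covariate, Benjamini-Hochberg adjustment over all 15968 genes tested). The threshold for a call, and for the words rose and fell, was an adjusted p of 0.05. A standard error (SE) is the size of the log2 fold change divided by the root of the F statistic. CPM values use the TMM factors, and levels per kilobase divide them by the union of exons in GENCODE release 29. The biological coefficient of variation was 6.87%. The fit was tested on simulated data with 50 genes changed at each of 4 sizes. It recovered 28% of 1.2-fold, 56% of 1.5-fold, 68% of 2-fold and 82% of 3-fold changes. A small change can thus be missed. Far fewer genes changed there than were called in these data, so the shares need not carry over. Alternatives were RLE factors (from edgeR), no low-count filter, a mean CPM of at least 1, DESeq2 1.42.0, the replicate number as a block, no mitochondrial genes, offsets for transcript length and GC (loess, span 0.5), and leaving out each library in turn. Promoter windows are RefSeq's, on GRCh38.p14. The members and gene lists were chosen with earlier results of these data known. From each list, up to 4 called genes with the smallest adjusted p were to be named, and other names were chosen after their values were seen. A few genes that the rule or the lists include are not reported here.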

Additional observations from a re-analysis of the deposited data

How the results depend on the processing

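All 9 factors kept their direction under every alternative, apart from FOXA2 and ONECUT2. The log2 fold change of FOXA2, never called, lay between -0.087 and 0.043 over the fits that left out a library, with 0.0090 without knockdown replicate 1 and 0.043 without control replicate 2. With offsets for length and GC content, ONECUT2 was at -0.06, HNF4A at 0.077, PROX1 at 0.082 and FOXA1 at 0.12, none of them called, and 2 factors rose. Leaving out a library gave ranges of 3 to 5 rises (3 without knockdown replicate 2), of 0.15 to 0.25 for HNF4A, 0.15 to 0.19 for FOXA1 and 0.049 to 0.17 for ONECUT2. ONECUT2 was not called without control replicate 2, knockdown replicate 2 or knockdown replicate 3. Without a low-count filter, FOXA1 (0.15) and ONECUT2 (0.11) were not called, and 4 factors rose. DESeq2 gave ONECUT2 at 0.13, not called. Falls ranged from 0 to 1 in the HNF4A and FOXA target lists and from 2 to 4 among genes linked to ONECUT, PROX1 and TBX3. The cause was not tested for any of these. All 4 ratios of gene pairs kept their sign in all 32 values, which do not include fits with the length and GC offsets. The median over all genes was -0.07 with the offsets and 0.02 without them. Same-numbered libraries did not deviate together (correlations of -0.012, -0.0025 and 0.021), so the numbers were not taken as pairs; with the replicate block 6 factors rose and 1 fell, the same counts as without it.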

Other observations

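A few genes of the lists had too few reads to be tested, and their counts are given without a test. PDX1, a homeobox gene of pancreas and duodenum that FOXA factors regulate, had 14, 8 and 8 counts in knockdown libraries, against 0, 1 and 1 in control libraries. ADH1B, an alcohol dehydrogenase of adult hepatocytes, had 35, 20 and 5 counts in knockdown libraries, against 1, 1 and 2 in control libraries. The groups did not overlap for either gene. LINC00261, the noncoding RNA next to FOXA2, had 16, 14 and 10 counts in knockdown libraries, against 7, 6 and 1 in control libraries, again without overlap. HNF4A-AS1 had 2, 7 and 4 counts in knockdown libraries, against 4, 6 and 2 in control libraries, which overlapped.

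The gene whose log2 CPM ran most closely with each factor over the 6 libraries was looked up among 14407 genes with a mean of 1 CPM or more. It was PRR15 for FOXA1 (Pearson r of 0.998), LTBP3 for TBX3 (0.999), ZNF302 for ONECUT1 (0.998), UBXN7 for ONECUT2 (0.999), CETN3 for CEBPA (0.997) and GRTP1 for HNF4A (0.991). These are the highest of many values over few libraries, which share depth and group, and serve as a description only. For FOXA2, FOXA3 and PROX1 the closest were OPLAH (0.972), ZNF710-AS1 (0.987) and PITRM1-AS1 (0.993).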
